A study of Homo sapiens with 18 samples.

Results

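The 10 genes studied here are genes that NF-kappaB is known to switch on, and they were followed in HCT116 cells as the cultures became dense. They were picked by gene symbol from the whole transcriptome table and comprise the chemokines CXCL1, CXCL2, CXCL3, CXCL8 and CCL20, the cytokine IL6, the feedback inhibitors NFKBIA, TNFAIP3 and BIRC3, and the adhesion molecule ICAM1. Of these 10 genes, 9 had a row among the 38055 genes of the table and 8 passed the filter on low values. IL6 had a row but was too low to be tested, and CCL20 was not analysed here. The study examined how growing cancer cells into crowded, stacked layers alters gene regulation by small RNAs. HCT116 is a human colorectal carcinoma line, used here as wild-type cells with no added agent, in McCoy's 5A medium with 10% serum. Whole cell RNA was taken on day 3 at 50% confluency and on day 5 at 250% confluency, with 3 whole transcriptome libraries per day, and small RNA libraries were also made on day 7 at 400% confluency. The labels call the 3 libraries of a day biological replicates, all of 1 cell line, and days in culture and crowding changed together, so that their effects cannot be told apart.

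NF-kappaB is a family of dimeric transcription factors held in the cytoplasm by IkappaB proteins until an upstream kinase complex marks the inhibitor for destruction. The freed dimers bind kappaB sites in DNA and switch on chemokines that draw in neutrophils and lymphocytes, adhesion molecules that these cells grip, and inhibitors that shut the pathway down again, IkappaBalpha itself among them. In the intestinal epithelium the chemokines of this group are known as alarm signals of infection and inflammation, and colorectal carcinoma cells can make them without any immune cell nearby.

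The promoters of all 10 genes are shown because the group is defined by its link to NF-kappaB. They were read from RefSeq on GRCh38.p14, from 250 bases before to 50 bases after the first transcribed base, and all 10 genes had an entry. Both strands were searched for the kappaB consensus in its common forms, with overlapping matches merged. Each of the 10 windows held at least 1 kappaB match, against 17.3% of the 35116 promoters of that length, and 3 windows held more than 1, against 2.26% of all promoters. A match is a run of letters and not a measured binding site, and it was no basis for choosing the genes here. The genes were picked as known NF-kappaB targets, however, so the difference from all promoters is a description and no independent finding. For 7 genes the stretch around the kappaB matches is given 5′ to 3′, with the matches in capitals.
CXCL1, chr4:73869304-73869350, plus strand: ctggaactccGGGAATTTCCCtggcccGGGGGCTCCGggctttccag
CXCL2, chr4:74099253-74099283, minus strand: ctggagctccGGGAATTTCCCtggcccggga
CXCL3, chr4:74038748-74038778, minus strand: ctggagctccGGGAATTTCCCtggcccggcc
CCL20, chr2:227813753-227813782, plus strand: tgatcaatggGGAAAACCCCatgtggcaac
IL6, chr7:22727117-22727146, plus strand: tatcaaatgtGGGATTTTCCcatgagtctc
TNFAIP3, chr6:137867182-137867223, plus strand: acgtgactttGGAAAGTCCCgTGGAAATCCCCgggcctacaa
BIRC3, chr11:102317274-102317368, plus strand: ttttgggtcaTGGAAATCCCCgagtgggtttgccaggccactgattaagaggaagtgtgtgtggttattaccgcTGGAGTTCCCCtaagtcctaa

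CXCL1, CXCL2 and CXCL3, which arose by duplication and lie in 1 chemokine cluster on chromosome 4, carried the same 11 letters, GGGAATTTCCC, starting at positions -79, -78 and -79 from the first transcribed base. TNFAIP3 and BIRC3 shared the match TGGAAATCCCC. In 8 of the 10 genes a match started within 100 bases of the first transcribed base, whereas the matches of BIRC3 and ICAM1 lay farther out, at positions -200 and -136 in BIRC3 and at -187 in ICAM1. The whole windows of the 3 genes that passed the test of day 5 against day 3 follow, with the kappaB match in capitals.
CXCL8, chr4:73740319-73740618, plus strand: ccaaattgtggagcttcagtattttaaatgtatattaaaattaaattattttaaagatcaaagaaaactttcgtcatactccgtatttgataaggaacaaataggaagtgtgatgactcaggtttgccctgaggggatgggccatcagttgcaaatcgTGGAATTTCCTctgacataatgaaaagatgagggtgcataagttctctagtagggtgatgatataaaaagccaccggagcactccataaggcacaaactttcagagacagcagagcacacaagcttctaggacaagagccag
NFKBIA, chr14:35404700-35404999, minus strand: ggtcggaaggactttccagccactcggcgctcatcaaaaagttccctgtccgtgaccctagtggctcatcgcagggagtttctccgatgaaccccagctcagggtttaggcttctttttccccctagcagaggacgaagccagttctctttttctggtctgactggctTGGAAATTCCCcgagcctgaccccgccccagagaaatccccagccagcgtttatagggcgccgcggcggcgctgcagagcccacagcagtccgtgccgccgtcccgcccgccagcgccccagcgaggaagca
ICAM1, chr19:10270870-10271169, plus strand: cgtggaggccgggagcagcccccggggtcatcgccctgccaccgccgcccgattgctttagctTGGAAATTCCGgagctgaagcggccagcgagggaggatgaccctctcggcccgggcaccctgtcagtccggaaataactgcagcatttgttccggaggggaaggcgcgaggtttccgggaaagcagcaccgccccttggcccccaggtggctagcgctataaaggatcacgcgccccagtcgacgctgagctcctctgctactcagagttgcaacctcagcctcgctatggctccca

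CXCL8 was the only gene of the 10 whose window also held the AP-1 consensus TGANTCA, at positions -137 to -131, a match found in 7.71% of all promoters. The kappaB matches of CXCL8 and NFKBIA started at -92 and -82.

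**Figure D1:**
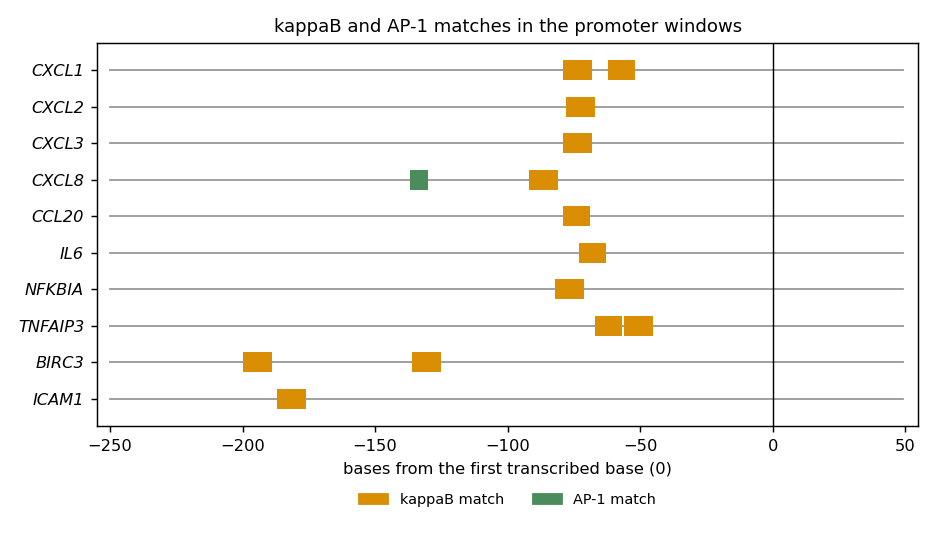
Positions of kappaB matches (orange) and AP-1 matches (green) in the promoter windows of the 10 genes, in bases from the first transcribed base. kappaB matches of 8 genes start within 100 bases of it, and those of BIRC3 and ICAM1 lie farther upstream.

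The whole transcriptome libraries held 27470978 to 56689369 reads on genes, the deepest and the shallowest both from day 3. These totals were recovered from the table, where dividing by the value of a single read gave a whole number, to within 0.01 read, for 100% of the entries. Each read was worth 0.618 to 1.42 units of the normalized value, depending on the library. The label of a colorectal epithelial line was checked with 9 epithelial markers, of which 7 were tested. On day 5, 6 of these were higher, against 29.3% of all genes tested, and EPCAM was not called (log2 fold change 0.0022, adjusted p = 0.982, limma). EPCAM was called in 1 of 14 settings, at 0.34 with a correction for GC content and length (adjusted p = 0.00646, limma). The summed values of the 9 markers were 38047 to 56541 on day 3 and 105863 to 106400 on day 5. The intestinal markers VIL1 and CDX1 stayed at or below 5.18 in every library. Of 8 leukocyte markers 7 had a row, summing to 24.6 to 39.7 on day 3 and 33.2 to 42.5 on day 5, with PTPRC at 0 to 2.14 and CD3E at 0 to 1.42. LYZ was at 4.39 to 8.04 on day 3 and 11.8 to 15.5 on day 5. It was called higher (log2 fold change 1.04, adjusted p = 0.00823, limma), in 10 of 11 settings. ITGAM, at 8.78 to 18.6, was not called. Fibroblast and endothelial markers summed to 534 to 619 and 1160 to 1229, mostly COL1A1, and the part of these shifts in the results below was not tested. These are bulk libraries, in which fewer cells with a transcript and less of it per cell cannot be told apart.

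Between day 3 and day 5 the genes of the group moved in different directions. ICAM1 rose, CXCL8 and NFKBIA fell, and CXCL1, CXCL2, CXCL3, TNFAIP3 and BIRC3 did not pass the test. Among the 8 genes tested, 3 had an adjusted p below 0.05 in limma with Benjamini-Hochberg adjustment, or 37.5%. In the table as a whole 11450 of 20129 genes tested did so, or 56.9%, with 29.3% higher and 27.6% lower on day 5. The 3 genes called were also the 3 whose days did not overlap, against 65% of all genes tested. The median log2 fold change of the 8 genes was -0.34, with 5 values below 0 and 3 above, and that of all genes was 0.01. The count of 3 rose to 5 of 8 without day 3 replicate 2, where 9900 of 19659 genes were called, and to 5 of 8 without day 5 replicate 3, where 10095 of 19660 were called, so whether the group's share lies below or above that of the table depends on single libraries. Fold changes are given on the scale log2(value + 1), which understates changes at low values.

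**Figure D2:**
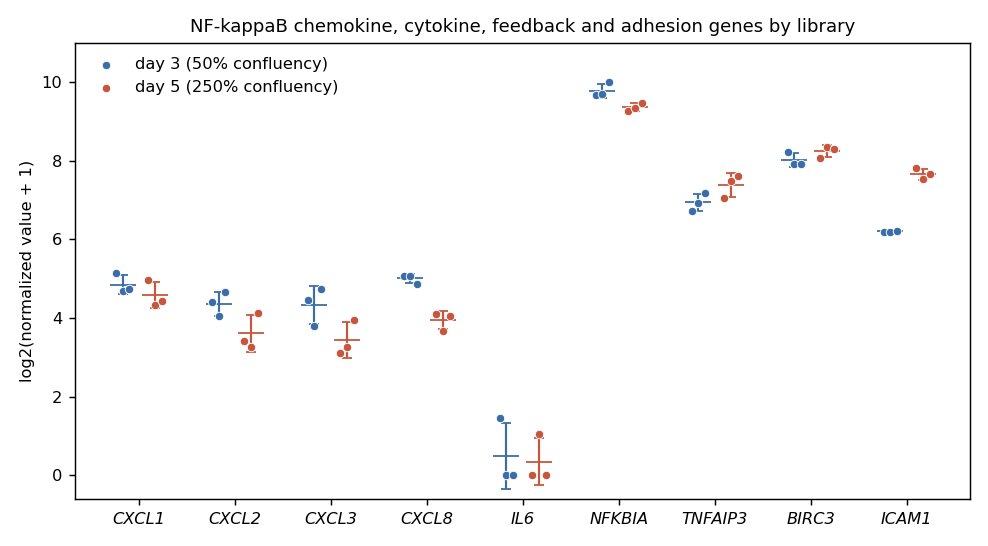
Normalized value of 9 genes in each whole transcriptome library, as log2(value + 1), with blue points for day 3 and red points for day 5, 3 libraries each, and horizontal bars and whiskers for the mean and SD. The days stand apart for CXCL8, NFKBIA and ICAM1 and overlap for the others, and IL6 lies near 0.

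The CXC chemokines of this group signal through the receptors CXCR1 and CXCR2 on neutrophils. CXCL8, also called interleukin 8, is a strong neutrophil attractant and spans chr4:73740519-73743716 on the plus strand. Its normalized values were 32.5, 32.8 and 28.4 on day 3 and 16.3, 11.8 and 15.5 on day 5. Every day 5 library lay below every day 3 library, with means of 31.2 ± 2.47 and 14.5 ± 2.40 (SD, n = 3 each). CXCL8 fell by 1.06 on the log2 scale (SE 0.14, adjusted p = 0.00129, limma). The values rest on 37, 53 and 20 reads on day 3 and 15, 11 and 15 on day 5. CXCL8 remained called under all 13 alternatives, although a correction for GC content and length reduced the change to -0.62 (adjusted p = 0.00994, and 0.00129 to 0.0255 over all settings).

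CXCL2 and CXCL3 are close relatives of CXCL1 that also act on CXCR2. They are encoded on the minus strand at chr4:74097040-74099196 and chr4:74036589-74038807. CXCL2 had values of 20.2, 15.5 and 24.1 on day 3 and 9.76, 8.57 and 16.6 on day 5. CXCL3 had values of 21.1, 13.0 and 25.5 on day 3 and 7.59, 8.57 and 14.5 on day 5. For both genes the days overlapped, because the lowest day 3 library, replicate 2, lay below the highest day 5 library, replicate 3. The log2 fold change was -0.76 for CXCL2 (SE 0.27, adjusted p = 0.0543) and -0.89 for CXCL3 (SE 0.32, adjusted p = 0.0529) in limma, both just short of the threshold. Without day 3 replicate 2 the adjusted p was 0.0462 for CXCL2, at -0.92, and 0.0221 for CXCL3, at -1.16. Without day 5 replicate 3 it was 0.0110 for CXCL2, at -1.02, and 0.0237 for CXCL3, at -1.15. Both genes were called in 3 of 14 settings, and over all settings the adjusted p ran from 0.0110 to 0.314 for CXCL2 and from 0.0221 to 0.179 for CXCL3. The GC and length correction brought CXCL2 to -0.35. These 2 genes share 29 windows of 150 bases, the read length, which is 1.96% of those of CXCL2 and 1.15% of those of CXCL3. Reads were trimmed, and of windows of 50 bases CXCL2 shared 9.63% with CXCL3 and 4.16% with CXCL1. CXCL3 shared 6.01% of such windows with CXCL2. A single read inside a shared window could not be told apart by sequence. The reads were paired, and how often the other read of a pair lay outside shared windows was not counted.

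CXCL1 is the founding member of this chemokine group, also known as a growth factor of melanoma cells, and lies on the plus strand at chr4:73869393-73871308. Its values were 34.2, 24.7 and 25.5 on day 3 and 30.4, 19.3 and 20.7 on day 5. The days overlapped, and in each of them replicate 1 was the highest. The log2 fold change was -0.27 (SE 0.21, 95% interval -0.78 to 0.25, adjusted p = 0.317, limma), an interval that holds both no change and the fall seen for NFKBIA. Its sign turned with the GC and length correction, to 0.10 (adjusted p = 0.722, the highest over all settings, whose lowest was 0.0732).

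All 4 CXC chemokines were weakly expressed, with 7 to 53 reads per gene and library. Added up and scaled to the reads on genes of each library they had 3.18, 2.45 and 2.66 CPM on day 3 and 1.88, 1.42 and 1.93 CPM on day 5. The 3 sums of day 5 lay below the 3 of day 3. CXCL8, which fell without overlap, is part of these sums, while CXCL1, CXCL2 and CXCL3 each overlapped between the days. The share of CXCL8 in the sums was 30.1%, 38.1% and 27.4% on day 3. On day 5 it was 25.4%, 24.4% and 23.1%, also without overlap. Of all genes tested, taken singly, 65% had no overlap between the days, and the rate for sums or shares of genes was not counted. With 3 libraries against 3 an exact permutation test cannot give a two-sided p below 0.1, and none is given for these sums. IL6, the cytokine that drives the acute phase response, is encoded at chr7:22725884-22732002 on the plus strand. It had 2 reads among 122895191 on day 3, both in replicate 1, and 1 read among 96820776 on day 5, in replicate 2. At this depth IL6 could not be measured on either day, and no fold change is given.

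The feedback inhibitors act at different steps of the pathway. NFKBIA encodes IkappaBalpha, which binds NF-kappaB dimers, carries them out of the nucleus and is itself made anew whenever they are active. It lies at chr14:35401079-35404749 on the minus strand. Its values were 814, 826 and 1015 on day 3 and 618, 652 and 710 on day 5. No day 5 library reached the lowest day 3 library, and replicate 3 was the highest on both days. NFKBIA fell by 0.42 on the log2 scale (SE 0.12, adjusted p = 0.0242, limma), on 2980 reads on day 3 and 1864 on day 5. The call did not hold without day 5 replicate 1 (-0.37, adjusted p = 0.0749) or without day 5 replicate 2 (-0.41, adjusted p = 0.0671), nor with no filter on low values (adjusted p = 0.0942), and it held in 11 of 14 settings, with adjusted p from 0.000519 to 0.0942.

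TNFAIP3 encodes a ubiquitin-editing enzyme that dismantles the signalling complexes upstream of the kinase, and lies at chr6:137867214-137883314 on the plus strand. Its values were 105, 120 and 143 on day 3 and 131, 179 and 195 on day 5. The days overlapped because day 5 replicate 1 lay below day 3 replicate 3. The log2 fold change was 0.44 (SE 0.19, 95% interval -0.02 to 0.90, adjusted p = 0.0889, limma). TNFAIP3 passed the threshold in 5 of 14 settings, among them the fit without day 5 replicate 1 (0.61, adjusted p = 0.0253), library totals as the scale (adjusted p = 0.0382), and the recovered reads tested with edgeR (adjusted p = 0.0223) or DESeq2 (adjusted p = 0.0475). With the GC and length correction the difference was 0.23 (adjusted p = 0.319, the highest over all settings).

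BIRC3 encodes a ubiquitin ligase of the inhibitor of apoptosis family that acts at tumour necrosis factor receptors, and lies at chr11:102317484-102339403 on the plus strand. Its values were 298, 239 and 240 on day 3 and 267, 324 and 316 on day 5. Day 3 replicate 1 lay above day 5 replicate 1, and the other day 5 libraries were higher than all of day 3. The log2 fold change was 0.22 (SE 0.13, 95% interval -0.09 to 0.54, adjusted p = 0.186, limma), and BIRC3 passed the threshold in none of the 14 settings, with adjusted p from 0.0626 to 0.385. Against its paralog BIRC2, the log2 ratio within a library was -3.32, -3.63 and -3.50 on day 3 and -3.25, -2.95 and -3.11 on day 5, without overlap. BIRC2 was not called either (-0.15, adjusted p = 0.168, limma), and each gene alone overlapped between the days. The ratio was not tested. Taken singly, 65% of all genes tested had no overlap between the days, and the rate for ratios of genes was not counted.

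ICAM1 encodes a cell surface protein that leukocytes bind through their integrins, and lies at chr19:10271093-10286615 on the plus strand. Its values were 72.0, 72.3 and 73.7 on day 3 and 222, 183 and 200 on day 5. The 3 day 3 libraries were almost equal, with a mean of 72.7 ± 0.913, and all 3 day 5 libraries were far above them, with a mean of 202 ± 19.6 (SD, n = 3 each). ICAM1 rose by 1.46 on the log2 scale (SE 0.09, 95% interval 1.23 to 1.69, adjusted p = 0.000207, limma), and the ratio of the means was 2.78. The rise rests on 251 reads on day 3 and 569 on day 5. It held under all 13 alternatives, between 1.08 with the GC and length correction and 1.52. On the opposite strand, ICAM4-AS1 overlaps 23.6% of the exon bases of ICAM1, had values of 39.5 to 66.5, and was counted apart, since only reads of the gene's own strand were accepted in mapping.

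**Figure D3:**
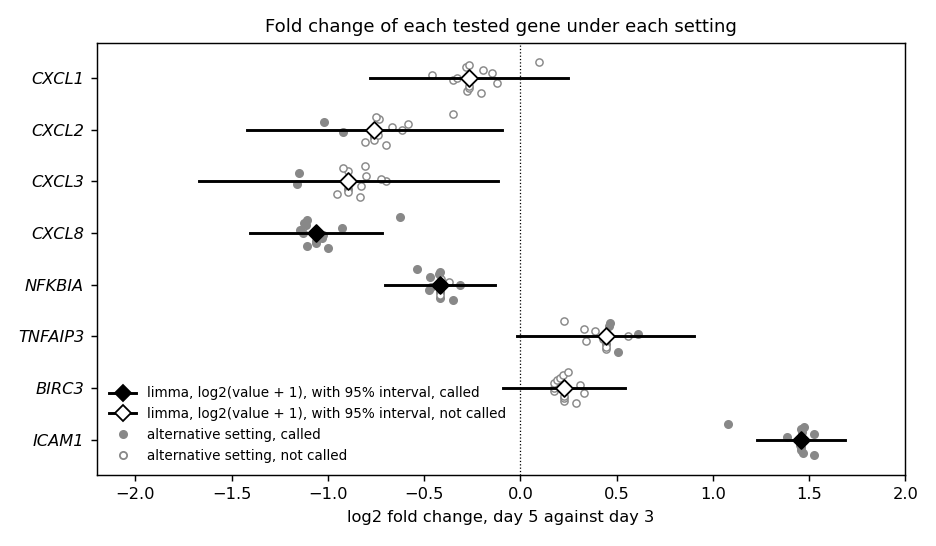
Log2 fold change of day 5 against day 3 for the 8 genes tested, with diamonds and bars for the limma estimate and its 95% interval and grey dots for the 13 alternatives, filled where the adjusted p is below 0.05. ICAM1 and CXCL8 are filled throughout, NFKBIA loses its call in 3 alternatives, and CXCL1 and BIRC3 are open throughout.

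Set on the RPKM scale, which divides reads by exon length and by the reads on genes of the library, NFKBIA had the highest level of the group on both days, at 7.23 ± 0.396 on day 3 and 5.66 ± 0.329 on day 5 (SD, n = 3). On day 3 BIRC3 came next at 0.968 ± 0.180, above all libraries of the following 3 genes, ICAM1 at 0.587, CXCL1 at 0.579 and TNFAIP3 at 0.528. These 3 levels could not be told apart, as the libraries of CXCL1 ran from 0.481 to 0.739 and spanned the others. CXCL2 at 0.394, CXCL8 at 0.337 and CXCL3 at 0.247 were lower, each overlapping with its neighbour in that order. On day 5 ICAM1 at 1.71 ± 0.170 stood above BIRC3 at 1.18 ± 0.116, with no overlap between their libraries. TNFAIP3 at 0.760 overlapped with CXCL1 at 0.502, and CXCL2 at 0.242, CXCL8 at 0.164 and CXCL3 at 0.134 were again the lowest of the genes tested, in overlapping ranges. ICAM1 and BIRC3 thus exchanged places. The means of the 3 lowest genes tested kept their order, but neighbours in that order overlapped on both days. The order between genes also depends on the exon length used, which joins all annotated exons of a gene. CXCL2 and CXCL3 had 65 and 63 reads on day 3 and were divided by 1398 and 2219 bases.

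Ratios within a library are free of the scaling between libraries. The log2 ratio of ICAM1 to NFKBIA was -3.50, -3.51 and -3.78 on day 3 and -1.48, -1.83 and -1.83 on day 5. The log2 ratio of TNFAIP3 to NFKBIA was -2.95, -2.79 and -2.83 on day 3 and -2.24, -1.86 and -1.87 on day 5. For both pairs the days stood apart, so that the gene was higher relative to NFKBIA in every day 5 library, which is a description with no test. NFKBIA alone was lower and ICAM1 alone higher in every day 5 library, so their ratio had to separate. TNFAIP3 alone overlapped between the days, and the fall of NFKBIA enters its ratio. How many genes of the table separate from NFKBIA in this way was not counted. The log2 ratio of NFKB2, which encodes a precursor of an NF-kappaB subunit, to NFKBIA was 0.08, 0.28 and -0.03 on day 3 and 2.30, 2.30 and 2.25 on day 5. NFKB2 alone was also higher in every day 5 library, so this ratio had to separate too.

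**Figure D4:**
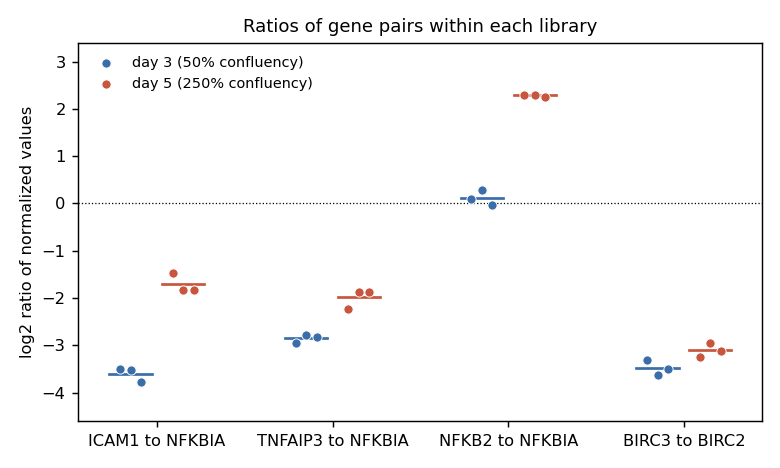
Log2 ratio of the normalized values of gene pairs within each whole transcriptome library, blue for day 3 and red for day 5, 3 libraries each, with a bar at the mean. The ratios to NFKBIA are higher in every day 5 library than in every day 3 library, and the days lie farthest apart for NFKB2. NFKBIA itself was lower in every day 5 library.

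Across the 6 libraries CXCL2 and CXCL3 moved together (Pearson's r = 0.973 of log2 values), while CXCL1 tracked neither of them (r = 0.329 and 0.281). CXCL8 and ICAM1 ran in opposite directions (r = -0.934, 6 libraries), and TNFAIP3 and NFKBIA were only weakly related (r = -0.340). These values describe 6 points in 2 days that share their libraries, and the difference between the days enters all of them. The next genes were sought among genes with a symbol, outside the group and the gene lists used here. Most like CXCL8 were ETAA1 (r = 0.999), GTPBP8 (r = 0.999) and HACD1 (r = 0.998). For NFKBIA they were TMEM256 (r = 0.996), LRPPRC (r = 0.996) and TRIT1 (r = 0.995). Among all 20129 genes tested, 1559 reached r = 0.95 with CXCL8 and 660 with NFKBIA. The pattern of neither gene was rare in the table.

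The other genes of the pathway were described by lists of 101 genes, of which 96 had a row and 70 were tested. Of the 70, 36 were higher and 10 lower on day 5, or 65.7% called against 56.9% of all genes tested, with a median log2 fold change of 0.28. With the GC and length correction the split was 24 higher and 15 lower among 69 genes, and the median was 0.04. Over all genes the correction turned an excess of higher calls (51.5% of them) into 4278 higher and 5448 lower with a median of -0.05, and in these lists it moved the share of higher calls from 78.3% to 61.5%. All 5 NF-kappaB subunits were higher, with NFKB2 rising by 1.75 (SE 0.10), RELA by 1.41 (SE 0.15) and RELB by 0.94 (SE 0.13) on the log2 scale. NFKB1 rose by 0.49, and REL, at 0.27, was called in 6 of 14 settings. Only 3 of the 5 were called with no filter on low values. The GC and length correction left NFKB2 at 1.07 and RELB at 0.35, both still called, and the median of the subunits went from 0.94 to 0.50 with 4 of 5 called. RELA had values of 979, 1218 and 1430 on day 3 and 3173, 3088 and 3242 on day 5, and NFKB2 had 862, 1006 and 994 on day 3 and 3049, 3207 and 3382 on day 5.

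Beside NFKBIA, 5 other IkappaB genes were tested. BCL3, an IkappaB protein that works in the nucleus with certain NF-kappaB dimers, rose by 2.11 (SE 0.10), and NFKBIZ, another nuclear member, fell by 0.82 (SE 0.10). NFKBIB, NFKBID and NFKBIE did not pass the test, at 0.25, 0.21 and 0.06, and all 3 turned negative with the GC and length correction, where NFKBIE was called at -0.49. The IKK list held 7 genes, of the IKK complex, its related kinases and kinases upstream of it, and 5 were tested. CHUK fell by 1.29, TBK1 by 0.80 and the upstream kinase MAP3K7 by 0.33, the last at -0.22 with the correction. MAP3K14, also upstream, was not called (0.18, adjusted p = 0.145, limma). With the correction it was called lower, at -0.49 (adjusted p = 0.00749, limma). IKBKB, the catalytic partner of CHUK, rose by 0.32, was called in 8 of 14 settings and stood at 0.04 with the correction. In the IKK list 2 of the 4 calls were lost with no filter.

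The ligands that set off the pathway were mostly at a few reads. Of 8 ligand genes only IL18 passed the filter, with a log2 fold change of 0.30 that was called in 8 of 14 settings and was 0.76 with the correction. TNF had values of 0.618 to 4.29 and IL1B of 0 to 1.04 in the 6 libraries. Of 16 receptors and adaptors tested, 9 rose and 2 fell (68.8% called, against 56.9% of all genes), led by IL1RAP at 1.27, IL17RA at 1.15 and TRADD at 0.99, with TLR3 at -1.52. With the GC and length correction 4 rose and 4 fell, and IL17RA and TRADD were at 0.51 and 0.49. CXCR1 and CXCR2, the receptors of the CXC chemokines of the group, stayed at or below 5.67. The IL6 receptor IL6R rose by 0.82 (0.47 with the correction) and its signalling partner IL6ST fell by 0.72.

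Of 13 other feedback inhibitors tested, 6 rose and 1 fell (53.8% called, against 56.9%). TNIP1, a partner of the TNFAIP3 protein, rose by 1.98 (SE 0.11), from 729, 756 and 926 on day 3 to 3081, 3167 and 3213 on day 5, and the stress gene IER3 rose by 0.84. TRAF1 rose by 0.73 and ZC3H12A by 0.61, both without a call after the GC and length correction, and TAX1BP1 fell by 0.48. Of 12 other NF-kappaB target genes tested, 5 rose and 1 fell (50% called, against 56.9%). The cytokine LIF rose by 1.26, the urokinase gene PLAU by 1.19, BCL2L1 by 0.79 and TNFAIP2 by 0.64, while SOD2 fell by 0.52. With the correction LIF was at 0.76, and BCL2L1 and TNFAIP2 were no longer called. The chemokines CXCL5, CXCL6, CXCL10, CXCL11 and CCL2 stayed at or below 2.17 in every library. The adhesion molecules VCAM1 and SELE stayed at or below 2.63, so that ICAM1 was the only 1 of these 3 above the filter.

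Chemokine mRNAs carry AU-rich elements that decay factors bind. Of 10 such decay and stability factors, 7 rose and 1 fell (80% called, against 56.9% of all genes tested), with a median log2 fold change of 0.65 that was 0.46 after the GC and length correction. ZFP36L1 rose by 1.49, ZFP36L2 by 1.37 and ZFP36, the decay factor tristetraprolin, by 1.23, and KHSRP rose by 1.14. With the correction ZFP36L1 was at 0.84 and KHSRP at 0.51, both still called. Around the CXCL genes on chromosome 4, 5 of 10 listed neighbours were tested, and the growth factor genes AREG and EREG rose by 0.76 and 0.44 while MTHFD2L fell by 0.60, or -0.34 with the correction.

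**Figure D5:**
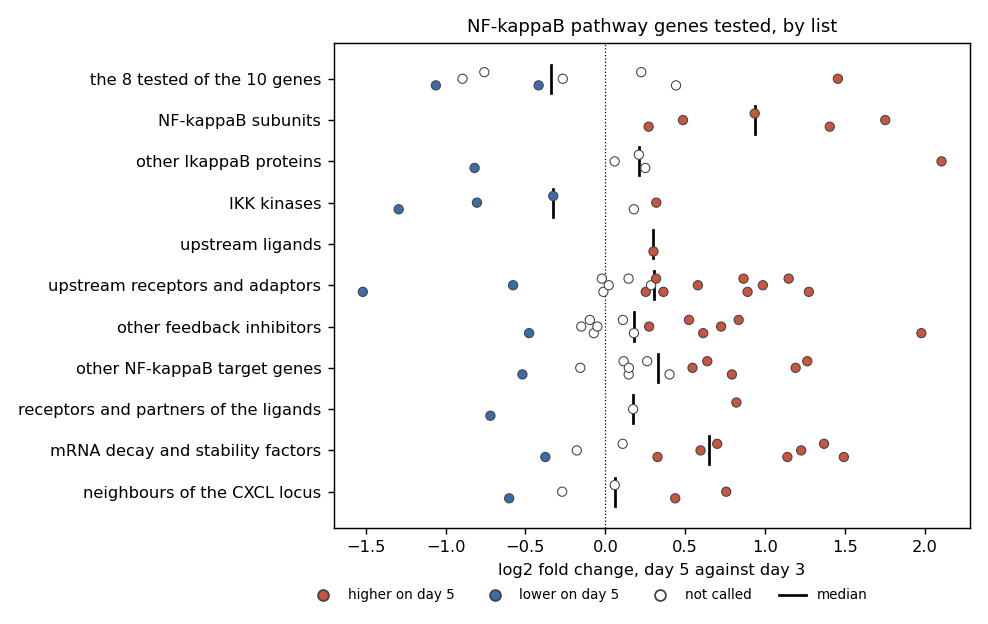
Log2 fold change of day 5 against day 3 for each gene tested, by list, with red points for genes called higher, blue points for genes called lower, open points for genes not called, and a bar at the median of the list. The subunit list lies wholly above 0 and the IKK list mostly below, with the 8 genes tested of the group on both sides.

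Small RNA libraries gave the only day 7 values analysed here. Of 5 mature miRNAs linked to NF-kappaB feedback, miR-146b-5p and miR-9-5p were tested. The sequences, from RefSeq on GRCh38.p14, are given 5′ to 3′ with the seed, bases 2 to 8, in capitals, to show that miR-146a-5p and miR-146b-5p share a seed and miR-9-5p does not.
miR-146a-5p, chr5:160485372-160485393 (plus strand): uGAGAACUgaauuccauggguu
miR-146b-5p, chr10:102436520-102436542 (plus strand): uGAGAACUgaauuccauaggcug
miR-9-5p, chr1:156420392-156420414 (minus strand), chr5:88666902-88666924 (minus strand) and chr15:89368032-89368054 (plus strand): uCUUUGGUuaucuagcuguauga

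On the log2 scale of the deposited values, miR-146b-5p was 4.15, 3.28 and 3.78 on day 3, 3.66, 3.56 and 3.18 on day 5 and 4.78, 4.62 and 4.63 on day 7. Its difference from day 3 was -0.28 on day 5 (SE 0.22, adjusted p = 0.451) and 0.94 on day 7 (SE 0.20, adjusted p = 0.00530) in limma. The difference of miR-9-5p was 0.01 on day 5 (SE 0.11, adjusted p = 0.972) and 0.41 on day 7 (SE 0.11, adjusted p = 0.0138). Of all mature miRNAs tested, 14.8% were called on day 5 and 53.7% on day 7. The day 7 median over all miRNAs was 0.30, and with library totals as the scale it was -0.21, where miR-146b-5p stood at 0.44 (adjusted p = 0.175) and miR-9-5p turned to -0.09 (adjusted p = 0.225). Under both scales miR-146b-5p and miR-9-5p lay above the median of all miRNAs tested, a difference that was not itself tested. For miR-9-5p it was small, with 0.41 against 0.30 (SE 0.11), and -0.09 against -0.21 with library totals. miR-146b-5p was near the filter value of 10, which it reached in 7 of the 9 libraries. miR-146a-5p, miR-155-5p and miR-223-3p lay between -2.32 and -0.35 in all 9 libraries, near the lowest value of the tables, -2.64.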

How the data were processed

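Whole transcriptome RNAseq of HCT116 cells was analysed for day 3 and day 5 with 3 libraries per day, and small-RNAseq for days 3, 5 and 7 with 3 libraries per day. Groups and replicate numbers came from the sample labels. The authors trimmed the whole transcriptome reads, mapped them strand-specifically to ENSEMBL genes of hg38 in CLC Genomics Workbench and normalized them, with TMM named in the methods. FastQC 0.11.8 and MultiQC 1.7 are named in the submitters' processing notes. For each gene, the deposited table lists normalized signal values, 1 for each library. Library preparation used molecular identifiers, but whether they were counted is not given in the sources used here. The authors mapped the small RNA reads to mature and hairpin miRNAs of GRCh37 and deposited log2 values of 2167 mature miRNAs. The methods name TMM and edgeR for these and give a range of reads per library, but neither how the log2 values were made nor the reads behind each value are given in the sources used here. Columns of the authors' own fold changes and p-values were not used. Whole transcriptome libraries of day 7 were not analysed here.

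Each deposited signal value was divided by the value of 1 read, which gave whole reads for 100% of values (tolerance 0.01 read). Genes with values of 10 or more in 3 or more of 6 libraries were tested with limma 3.58.1 (R 4.3.3) on log2(value + 1), and miRNAs likewise on their log2 values with the cut on back-transformed values. P-values were adjusted by Benjamini-Hochberg over all features tested, with 0.05 as the threshold, and measure the spread between libraries that the labels call biological replicates. Alternatives were library totals, a pseudocount of 0.1, no filter, the replicate number as a block, each library left out, and edgeR 4.0.16 and DESeq2 1.42.0 on recovered reads. A loess correction of each library for GC content and length was added after seeing the data. The limma fit was also run on simulated reads in which a small set of genes changed, all by the same factor and with an equal spread. The changed genes had more reads than the chemokines here had on average. That setting differs from these data, where most genes were called, so it does not show how the fit works here. Exons and overlaps came from GENCODE release 44, promoters and miRNA loci from RefSeq on GRCh38.p14, handled in Python 3.11.15 with pandas 2.3.3 and matplotlib 3.10.9. Gene names were matched by symbol or ENSEMBL identifier.

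The members and lists were chosen with earlier results of these data known. Named were all members, up to 4 called genes per list with the largest change and no overlap between days, and 5 miRNAs. Other genes whose low level bears on a member were named too, as were the 3 genes outside the lists most like CXCL8 and NFKBIA. REL, NFKBIB, NFKBID, NFKBIE, MAP3K14, TAX1BP1, SOD2, BIRC2 and ICAM4-AS1 were named after their values were seen.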

Additional observations from a re-analysis of the deposited data

How the results depend on the processing

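Of the 8 genes tested, 3 were called, and the count was 6 with the replicate number as a block, which added CXCL2, CXCL3 and TNFAIP3, 4 with library totals, edgeR or DESeq2, and 2 with no filter. Leaving out each library in turn gave 2 to 5. The numbers were not taken to pair the libraries, since deviations of same-numbered libraries correlated at -0.011, 0.034 and 0.023, and not every library correlated best with its own number. In the small RNA data the same-numbered values were 0.075 to 0.118 on day 5 and 0.011 to 0.112 on day 7, and the block changed the call of neither miRNA tested here (over all miRNAs 80 calls became 71 on day 5, and 300 became 302 on day 7). ICAM1 and CXCL8 were called in all 14 settings. CXCL1 reversed to 0.10 with the GC and length correction, and the cause was not tested. Over all genes 11450 calls became 9235 with no filter (38055 tested), 9780 to 11300 with a library left out, 10533 with the block and 12280 with edgeR, and the correction gave 9726. The counts of pathway genes called lay between 36 and 49 against 46.

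Neither miRNA tested was called on day 5 under any setting (limma). On day 7 the count of 2 fell to 0 with library totals, 1 with no filter and 1 to 2 with a library left out (1 without day 7 replicate 2), and miR-9-5p reversed to -0.092 with library totals. Its day 5 difference of 0.01 ran from -0.061 to 0.053 with a library left out. The CXC chemokines rest on 7 to 53 reads per library, which limits their precision, and 3 libraries per day limit what can be told apart.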
